A study of Homo sapiens with 5 samples.

Results

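The transcripts that encode the heterogeneous nuclear ribonucleoproteins (hnRNP), the serine/arginine-rich (SR) proteins, the polypyrimidine tract binding (PTB) and TRA2 proteins and the kinases of the SR proteins were followed in HEK293 cells that carry a PRL-1 construct. Members were chosen by name, as every probe set that the platform annotation assigns to an HNRNP gene, SRSF1 to SRSF12, TRA2A, TRA2B, PTBP1, PTBP2, SRPK1, SRPK2 or CLK1 to CLK4. This gave 47 of the 21357 genes annotated on the array, with 164 of the 54613 probe sets that are not controls. Of the 164, 152 reached a signal of 100 on at least 2 arrays and were tested, as did 33818 probe sets in all. The 12 that were not tested had no signal above 148.5 and belonged to HNRNPM, HNRNPC, HNRNPD, HNRNPA2B1, PTBP1, TRA2A, SRSF4 and CLK4, each of which had other probe sets. On 18 of the 164 the annotation names several genes, and these are not read as measures of a single gene, except that of HNRNPH2.

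HEK293 is a line derived from human embryonic kidney. A stable line carrying pcDNA4 without an insert (HEK293-vector, n = 3 arrays) was set against one carrying PRL-1 in that plasmid (HEK293-PRL-1, n = 2 arrays), both grown in DMEM with fetal bovine serum, penicillin and streptomycin. PRL-1, encoded by PTP4A1, is a prenylated protein tyrosine phosphatase. As each group is 1 stable line grown in separate cultures, what the construct does cannot be told apart from what else distinguishes the lines, and the p-values rest on culture-to-culture spread. In RNA from whole cultures, fewer cells with a transcript and less of it per cell cannot be told apart either.

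Genes that mark HEK293 cells were present, with 9 of 11 at a signal of 100 or more on all 5 arrays. Of LHX1 and NEFM, the others, 1 was below 100 on every array. Markers of other cell types also reached that cut on all arrays, so it does not tell cell types apart. They were 2 of 4 for blood, 1 of 3 for endothelium and 2 of 6 for fibroblasts. For hepatocytes it was 1 of 3 and for differentiated renal tubule 3 of 4. Vector replicate 3 stood apart, with correlations of 0.938 to 0.947 with the remaining arrays. None of the 4 PTP4A1 probe sets was called higher (log2 fold changes of 0.06 to 0.15, limma adjusted p from 0.737 to 0.892), so every direction here refers to the arrays labelled PRL-1. The study states that earlier work found PRL-1 mRNA and protein higher in this line than in vector cells. A further PRL-1 array was not analysed here. The authors left it out because qRT-PCR showed no difference in PRL-1 between that sample and the vector cells.

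Splice site choice is set by proteins that bind the pre-mRNA beside the spliceosome. SR proteins bind enhancer sequences in exons through their RNA recognition motifs and recruit splicing factors through their arginine/serine-rich domain, whereas many hnRNPs bind silencers and oppose exon inclusion. Phosphorylation of the arginine/serine-rich domain by the SRPK kinases in the cytoplasm and the CLK kinases in the nucleus governs where SR proteins go and what they bind. A transcript level says nothing about that phosphorylation, and these arrays do not measure exon inclusion.

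HNRNPH2 was the only member that passed the test. It encodes hnRNP H2, one of the F/H proteins that bind runs of G in pre-mRNA. Its probe set 201132_at gave signals of 2065, 2006 and 1952 on the vector arrays and of 3892 and 3756 on the PRL-1 arrays. Both PRL-1 arrays lay far above all vector arrays, and within each group the arrays lay close together. The mean rose from 2008 ± 56.5 (SD, n = 3) to 3824 ± 95.9 (SD, n = 2), a 1.91-fold difference. On the log2 scale this is 0.93 ± 0.11 (standard error), with a 95% interval of 0.69 to 1.17 (limma, adjusted p = 0.0133 over all tested probe sets). The study lists this gene because it changed on these arrays, so the call is not independent evidence. It also reports the protein as higher in PRL-1 cells by mass spectrometry, by a smaller ratio, in cultures grown separately from those of the arrays. Among other members, it reports the proteins of SRSF2 and SRSF3 as higher and that of HNRNPF as lower. The call was lost without the eBayes trend (adjusted p = 0.242), in the methods' t-test (0.141) and when either PRL-1 array or vector replicate 2 was left out, while the log2 fold change stayed at 0.90 or above in each.

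The annotation gives 201132_at both to HNRNPH2 and to RPL36A-HNRNPH2, a transcript that reads from the ribosomal protein gene RPL36A into HNRNPH2. The brightest probe set annotated to RPL36A and the read-through gave 41676, 48770 and 57058 in vector cells and 40872 and 42724 in PRL-1 cells. Here the groups overlapped, and the log2 fold change was -0.22 (adjusted p = 0.679). A dimmer probe set with the same pair of names gave 0.15 (adjusted p = 0.893).

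The bases just before the annotated start of HNRNPH2 are shown because it is the member whose transcript changed. The 250 bases come from RefSeq on GRCh38.p14, chrX:101407972-101408221, plus strand.
HNRNPH2 promoter: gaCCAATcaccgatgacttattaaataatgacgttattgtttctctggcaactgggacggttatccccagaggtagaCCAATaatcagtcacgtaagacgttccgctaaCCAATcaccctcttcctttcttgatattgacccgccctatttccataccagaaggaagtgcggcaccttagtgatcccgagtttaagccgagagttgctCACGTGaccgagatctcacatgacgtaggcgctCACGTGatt
Capitals mark CCAAT and CACGTG, motifs picked with this window in view, searched on both strands (ATTGG counted as CCAAT). The window holds 3 matches to CCAAT and 2 to CACGTG, which do not overlap each other. Of 35116 RefSeq windows of 250 bases, 32% hold CCAAT and 2.93% hold at least 3, while 6.34% hold CACGTG and 0.535% hold at least 2. Among 63 windows of 43 member genes, 39.7% hold CCAAT and 14.3% hold CACGTG. A match describes the letters of the window and no binding was measured.

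The remaining F/H genes had 9 tested probe sets, and none passed the test. HNRNPH1 encodes the protein most like hnRNP H2. Its probe set 213470_s_at gave 2176, 2118 and 1387 on the vector arrays and 2606 and 2689 on the PRL-1 arrays, so the groups did not overlap but vector replicate 3 lay well below the other two. The log2 fold change was 0.51, with a standard error of 0.19 (adjusted p = 0.444). The other 3 HNRNPH1 probe sets gave -0.14, -0.01 and 0.04, and on each the groups overlapped.

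HNRNPH3, another gene of the subfamily, gave log2 fold changes from -0.05 to 0.18 over 4 probe sets. The largest, on 210588_x_at, had an adjusted p of 0.675. HNRNPF, which encodes hnRNP F, gave 5652, 5844 and 4646 in vector cells and 4852 and 4740 in PRL-1 cells. The groups overlapped through vector replicate 3, and the difference was -0.16 on the log2 scale (95% interval -0.45 to 0.13, adjusted p = 0.723).

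The change of HNRNPH2 relative to each of these probe sets was taken within each array. On average it was larger than that of the other probe set for all 9. The difference was 0.42 against 213470_s_at and 0.75 to 1.09 against the remaining 8 on the log2 scale. Against 213470_s_at the groups overlapped, with 0.38 on vector replicate 3 and 0.37 on PRL-1 replicate 2. Against the remaining 8 they did not. Because HNRNPH2 was listed for its change on these arrays, these differences are a description and carry no test.

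**Figure D1:**
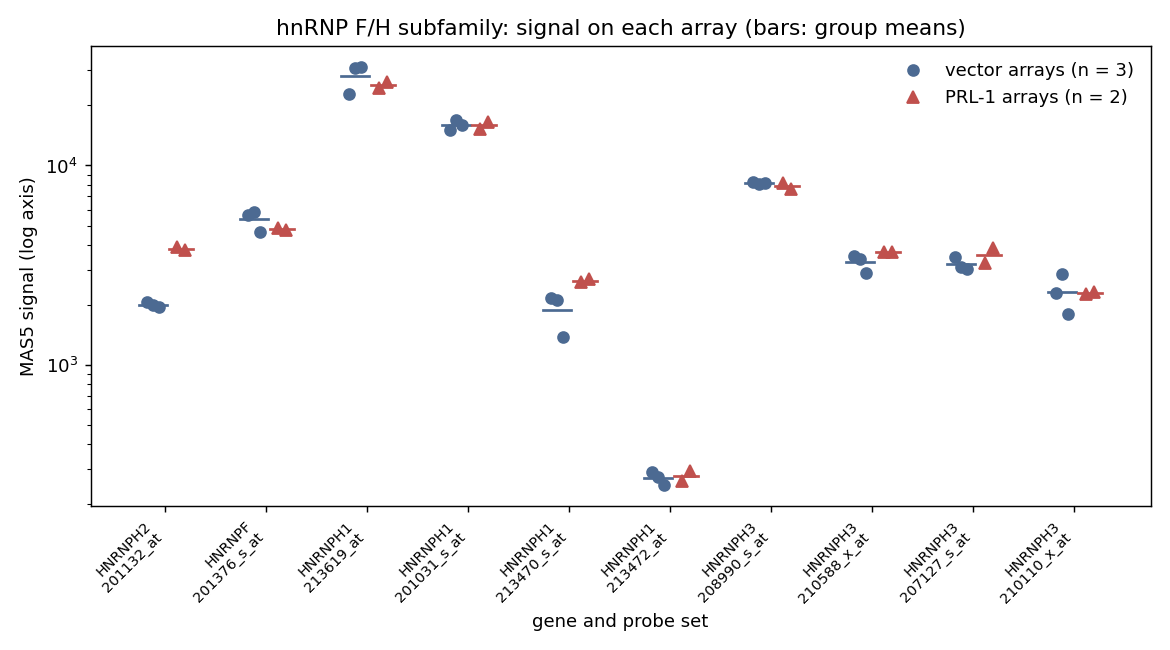
MAS5 signal (log axis) of each F/H probe set on the 3 vector arrays (circles) and the 2 PRL-1 arrays (triangles), with bars at the group means. The groups are separated by a mean 1.91-fold for HNRNPH2, and lie near each other or overlap for the other probe sets except 213470_s_at of HNRNPH1.

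Over all 152 tested member probe sets, 1 was called higher and 0 lower. The shares called over all tested probe sets were 0.192% in both directions, 0.0591% higher and 0.133% lower. At an unadjusted p of 0.05 or below, limma counted 12 members (7.89%), 8 of them higher and 4 lower, beside 9.72% of all tested probe sets. Groups did not overlap for 50 members (32.9%), beside 28.9% of all tested probe sets. By direction, 35 members (23%) were higher without overlap and 15 (9.87%) lower, beside 12.8% and 16.1% of all tested probe sets. Of the 152, 91 (59.9%) lay above 0, beside 44.9% of all tested probe sets. Both splits include vector replicate 3, described with the gene medians, which was the lowest vector array for most members. The count of calls rests on a single member.

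**Figure D2:**
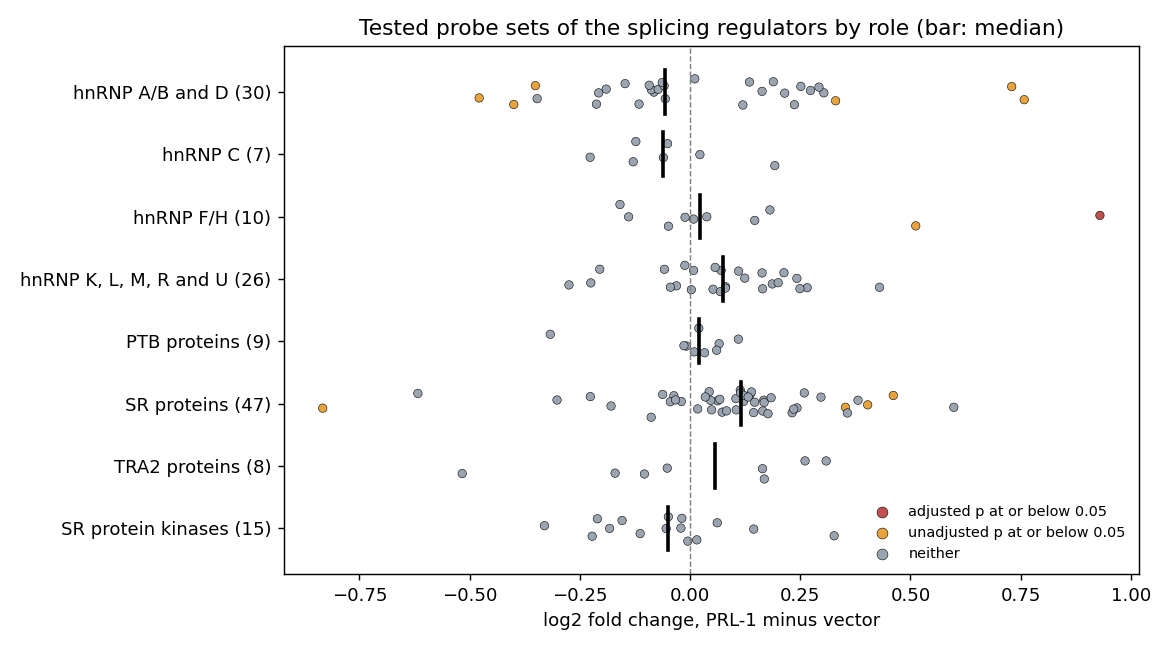
Log2 fold change (PRL-1 minus vector, x axis) of every tested member probe set, in rows by role with the number tested in brackets, jittered vertically, with a bar at the median of each role. HNRNPH2 at 0.93 is the only point with an adjusted p at or below 0.05.

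The tests were precise enough to bound many members. The 95% interval reached a median of 0.32 to either side of the estimate on the log2 scale. For 136 of the 152 probe sets the interval lay within a doubling or its inverse, and for 78 it lay within 0.5 on the log2 scale on either side of 0.

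The hnRNP A/B and D proteins coat nascent transcripts, and hnRNP A1 is the classical antagonist of SR proteins at exon silencers. Of their 30 tested probe sets, 3 higher and 3 lower had an unadjusted p at or below 0.05, and none was called. Shares over all tested probe sets were 4.39% higher and 5.33% lower at that level.

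HNRNPA3, a close relative of HNRNPA1 and HNRNPA2B1, was the member with the smallest p after HNRNPH2. Its probe set 211930_at gave 2289, 2089 and 1629 in vector cells and 3415 and 3292 in PRL-1 cells. The groups were well separated, with vector replicate 3 the lowest. The log2 fold change was 0.76, with a standard error of 0.15 and a 95% interval of 0.41 to 1.11 (adjusted p = 0.188). Without vector replicate 3 the value was 0.62 and passed the test (adjusted p = 0.0189).

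The other HNRNPA3 probe sets gave smaller values. Those annotated to HNRNPA3 alone, 211932_at and 211929_at, gave 0.27 and 0.29, with non-overlapping groups. Another 3, annotated to both HNRNPA3 and HNRNPA3P1, gave 0.19 to 0.25.

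HNRNPA0, which encodes a small A/B protein, differed between its probe sets, and is named here after its values were seen. On 201055_s_at the vector arrays gave 1029, 1521 and 2210 and the PRL-1 arrays 2517 and 2499. The vector arrays were spread over a range that nearly reached the PRL-1 arrays. The log2 fold change was 0.73 with a standard error of 0.26 (adjusted p = 0.428), and 1.00 without vector replicate 3 (adjusted p = 0.0352). The other 2 HNRNPA0 probe sets gave -0.12 and -0.06 with overlapping groups.

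HNRNPA1 lay below 0 on all 3 probe sets annotated to it alone, without passing the test. On 221919_at the vector arrays gave 2104, 2096 and 2173 and the PRL-1 arrays 1565 and 1656. The groups did not overlap, and the log2 fold change was -0.40 with a standard error of 0.11 (adjusted p = 0.291). On 222040_at the signals were 818, 824 and 652 in vector cells and 550 and 542 in PRL-1 cells, again without overlap. This gave -0.48 (adjusted p = 0.381). On 214280_x_at it gave -0.35 with overlapping groups, and the brightest, 200016_x_at, annotated to both HNRNPA1P10 and HNRNPA1, gave -0.21 with overlapping groups. On 213356_x_at, annotated to HNRNPA1P33, HNRNPA1P10, HNRNPA1L2 and HNRNPA1, the groups also overlapped (-0.15).

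HNRNPA2B1, which encodes the A2 and B1 proteins, gave 5283, 5589 and 6586 in vector cells and 4614 and 4474 in PRL-1 cells on 225932_s_at. The groups did not overlap (log2 fold change -0.35, adjusted p = 0.421), whereas on its brightest probe set, 205292_s_at, they did (-0.07). HNRNPD, which encodes the AU-rich element binding protein AUF1, gave values above 0 on 5 of 6 probe sets, from -0.09 to 0.30. HNRNPDL, its relative, lay between -0.19 and 0.33 on 6 probe sets.

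**Figure D3:**
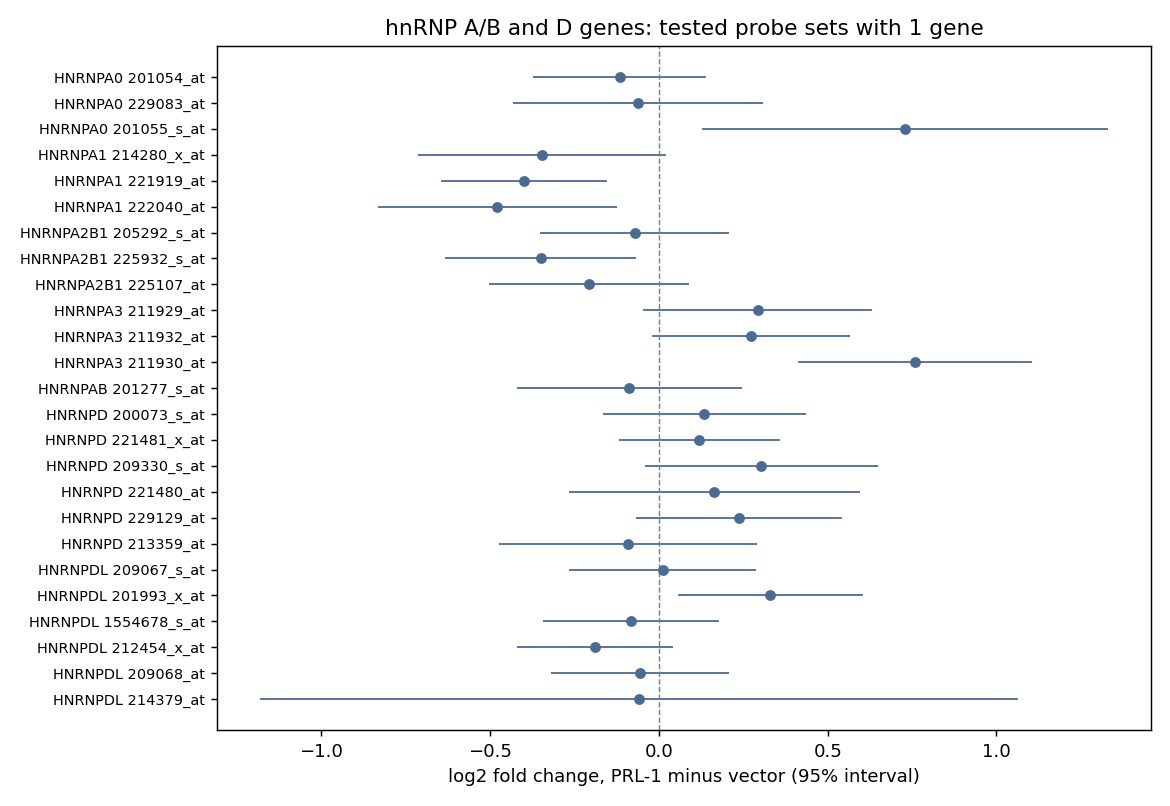
Log2 fold change (PRL-1 minus vector) with 95% interval for the tested probe sets annotated to a single A/B or D gene, ordered by gene and then by vector signal. All 3 HNRNPA3 points lie above 0 and all 3 HNRNPA1 points below it, while the HNRNPA0 points range from -0.12 to 0.73.

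The remaining hnRNPs gave no call and no unadjusted p at or below 0.05 in either direction. HNRNPC encodes the tetramer-forming core protein that binds uridine tracts, and its 6 probe sets ranged from -0.13 to 0.19. The probe set shared by HNRNPCL1 to HNRNPCL4, copies of the hnRNP C gene, gave -0.23 with overlapping groups (adjusted p = 0.830).

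Among the K, L, M, R and U genes, 19 of 26 probe sets (73.1%) lay above 0, beside 44.9% of all tested probe sets, with a median of 0.08. Over all 73 tested hnRNP probe sets the share above 0 was 56.2%. Without vector replicate 3 that share was 46.6%, beside 48.9% of all tested probe sets. HNRNPUL1, a relative of the nuclear matrix protein hnRNP U, had the smallest p. Its 208713_at gave 6894, 6668 and 6771 in vector cells and 8711 and 7451 in PRL-1 cells. Both PRL-1 arrays were higher, by 0.25 on the log2 scale (adjusted p = 0.520).

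HNRNPLL, a regulator of CD45 splicing in lymphocytes, gave 559, 548 and 525 in vector cells and 444 and 456 in PRL-1 cells on 225385_s_at, without overlap (-0.27, adjusted p = 0.583). Its other probe sets gave -0.06, -0.03 and 0.08. HNRNPM gave 0.27 on 1555844_s_at (adjusted p = 0.595) and ranged from -0.20 to 0.43 over 5 probe sets. For HNRNPK, which binds C-rich sequence, both probe sets gave small values, 0.07 and 0.08. The dim 66053_at, annotated to both HNRNPUL2-BSCL2 and HNRNPUL2, gave 0.00 with overlapping groups.

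PTBP1 and PTBP2 encode the PTB proteins, which repress exons through pyrimidine tracts. Of their 9 tested probe sets 1 (11.1%) had groups that did not overlap, beside 28.9% of all tested probe sets. PTBP1 gave -0.32 on the dim 226491_x_at, where the groups overlapped, and 0.02 on 211270_x_at, its brighter probe set with 1 gene. Probe sets annotated to both MIR4745 and PTBP1 ranged from -0.01 to 0.07. PTBP2, the neural form, gave -0.01 and 0.11.

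The SR proteins had 47 tested probe sets, of which 36 (76.6%) lay above 0, beside 44.9% of all tested probe sets. Groups did not overlap for 15 (31.9%), beside 28.9% of all tested probe sets. Of these 12 were higher and 3 lower, where the shares over all tested probe sets were 12.8% and 16.1%. None was called, and 4 (8.51%) had an unadjusted p at or below 0.05, beside 9.72% of all tested probe sets.

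SRSF1, the founding SR protein gene, was read differently by its 8 probe sets. On 229246_at the vector arrays gave 481, 407 and 718 and the PRL-1 arrays 272 and 314. Both PRL-1 arrays were the lowest, and the log2 fold change was -0.83 with a standard error of 0.24 (adjusted p = 0.320). On 226419_s_at the signals were 1033, 1245 and 2340 in vector cells and 879 and 1008 in PRL-1 cells, with vector replicate 3 far above the rest (-0.62, adjusted p = 0.546). The brightest probe set, 211784_s_at, gave 0.07 with overlapping groups. In all, 4 SRSF1 probe sets lay above 0 and 4 below, from -0.83 to 0.38, and which parts of the transcript they read was not examined.

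SRSF4, which encodes a large SR protein, gave values above 0 on 4 of 4 probe sets. On 239512_at the vector arrays gave 581, 534 and 599 and the PRL-1 arrays 829 and 744. The groups did not overlap (0.46, standard error 0.14, adjusted p = 0.346), whereas on its brightest, 201696_at, they did (0.10). SRSF10, which encodes a splicing repressor that is active when dephosphorylated, gave 2343, 2414 and 2398 in vector cells and 2778 and 3338 in PRL-1 cells on 210178_x_at. The groups did not overlap (0.35, adjusted p = 0.402), and the other 4 probe sets gave -0.09 to 0.24.

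SRSF5 and SRSF6, named after their values were seen, had 5 tested probe sets, all above 0. SRSF5 on 212266_s_at gave 3207, 3607 and 2452 in vector cells and 4164 and 3905 in PRL-1 cells. The lowest of these was again vector replicate 3, and the log2 fold change was 0.40 (adjusted p = 0.474). SRSF6 on 206108_s_at gave 513, 619 and 317 in vector cells and 639 and 777 in PRL-1 cells, barely without overlap (0.60, adjusted p = 0.517).

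SRSF2, which encodes an SR protein that stays in the nucleus and binds exonic enhancers, was read by 3 probe sets that are also annotated to the microRNA gene MIR636. They gave 0.14, 0.08 and -0.06, all with overlapping groups. SRSF3, the smallest SR protein, gave values from -0.18 to 0.17 over 6 probe sets with overlapping groups on each. The pair of probe sets annotated to both GATC and SRSF9 gave -0.04 and 0.02, again with overlap.

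TRA2A and TRA2B encode SR-like proteins that bind GAA-rich enhancers, and lay on opposite sides of 0. TRA2B was above 0 on 4 of 4 probe sets, with 7323, 7916 and 5226 in vector cells and 8469 and 8172 in PRL-1 cells on 200892_s_at. The groups did not overlap, and the log2 fold change was 0.31 (adjusted p = 0.608). TRA2A was below 0 on 4 of 4, from -0.52 on 213575_at to -0.05, and on each the groups overlapped (adjusted p = 0.669 for the first). Vector replicate 3 was the lowest vector array on 200892_s_at and the highest on 213575_at. Without it the log2 fold changes of these probe sets were 0.13 and -0.27.

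The kinases gave no call and no unadjusted p at or below 0.05 over 15 tested probe sets. Of these 4 (26.7%) lay above 0, beside 44.9% of all tested probe sets. SRPK2 had 3 probe sets on each side of 0. Its 214931_s_at gave 571, 614 and 667 in vector cells and 726 and 822 in PRL-1 cells, without overlap (0.33, adjusted p = 0.515). The brightest SRPK2 probe set, 203182_s_at, gave -0.02. SRPK1 gave -0.05 and -0.02.

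CLK4 was below 0 on 3 of 3 probe sets. On 210346_s_at it gave 829, 857 and 867 in vector cells and 739 and 720 in PRL-1 cells, so both PRL-1 arrays lay below every vector array (-0.22, adjusted p = 0.614). CLK3 on 202140_s_at gave -0.18, with 764, 761 and 1068 in vector cells and 752 and 751 in PRL-1 cells. Here only vector replicate 3 lay away from the rest. CLK1 gave 0.06 and CLK2 gave -0.05, both with overlapping groups.

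Taking the brightest 1-gene probe set for each gene, the 10 SR protein genes measured all lay above 0, with a median log2 fold change of 0.12. The same median over 14547 genes was -0.03, with 44.8% above 0. SRSF2 and SRSF9, read only by probe sets with several symbols, are not among the 10. The brightest probe set of each lay below 0, at -0.06 for SRSF2 and -0.04 for SRSF9. The 20 hnRNP genes had a median of 0.03, with 11 above 0, and the 6 kinase genes a median of -0.04, with 1 above 0.

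The SR protein median moved with a single array. Taken as a deviation from the vector mean, the vector arrays gave 0.09, 0.06 and -0.15 and the PRL-1 arrays gave 0.13 and 0.10. The PRL-1 arrays lay just above vector replicates 1 and 2, and vector replicate 3, at -0.15, lay below all of them. The same array was low for hnRNP genes (-0.08) and slightly high over all genes (0.05). It was the lowest vector array for 90 of 152 member probe sets (59.2%), beside 32.6% of all tested probe sets.

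With all arrays 91 of 152 members (59.9%) lay above 0, beside 44.9% of all tested probe sets. Without vector replicate 3 the count was 71 (46.7%), beside 48.9%, and the SR protein share went from 76.6% to 55.3%. The SR gene median was then 0.07 and the hnRNP gene median -0.00. Without that array 3 members were called, HNRNPH2, HNRNPA3 and HNRNPA0, beside 0.926% of all tested probe sets. What sets this array apart was not tested.

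**Figure D4:**
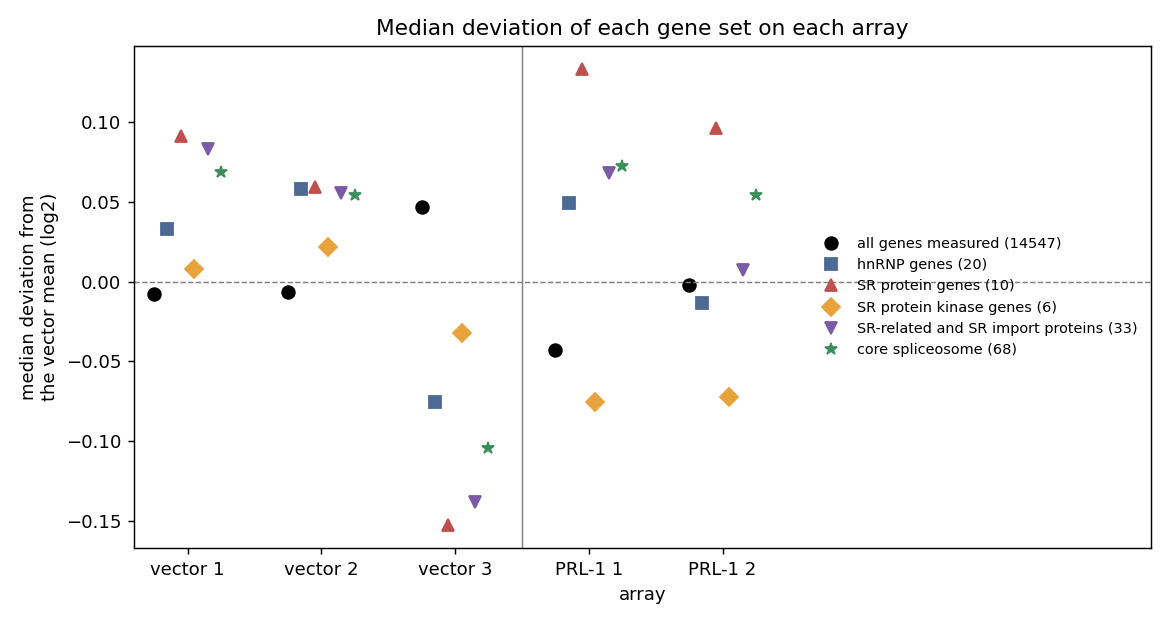
Median over genes of the deviation from the vector mean (log2, y axis) on each of the 5 arrays, for each gene set with its number of measured genes in brackets. SR protein genes stand at -0.15 on vector replicate 3 and at 0.06 to 0.13 on the other 4 arrays.

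Lists of further genes of splicing were described in the same way. Of 33 measured SR-related and SR import genes none was called, and the median was 0.07. ARGLU1, an arginine-rich splicing cofactor, had the smallest p (0.32, adjusted p = 0.447), and TNPO1, a nuclear import receptor, gave -0.31 (adjusted p = 0.474). Of 68 core spliceosome genes 49 (72.1%) lay above 0, beside 44.8% of all genes measured, with a median of 0.06 and no call. TXNL4A, a U5 snRNP protein, gave 0.65 (adjusted p = 0.201), and CWC27, a peptidyl-prolyl isomerase of the spliceosome, gave -0.57 (adjusted p = 0.205). On vector replicate 3 the median deviation of the core spliceosome genes was -0.10, and that of the SR-related genes was -0.14.

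Among 56 other RNA-binding regulators of splicing, with a median of -0.06, FMR1 was the only one called. Over all 14547 genes measured, 13 were called higher and 24 lower. The study lists FMR1 as changed on these same arrays, through another probe set, so this call is not independent evidence. FMR1 encodes FMRP, a repressor of translation, and rose 1.78-fold. Its signals on the brighter of 2 probe sets were 4455, 4446 and 3907 in vector cells and 7394 and 7741 in PRL-1 cells, far from overlap (log2 fold change 0.83, adjusted p = 0.0325). Leaving out vector replicate 1, vector replicate 2 or either PRL-1 array ended the call, with adjusted p from 0.0818 to 0.446. RBM47 had the next smallest p in that set (0.55, adjusted p = 0.301). Of 14 other kinases and phosphatases that act on splicing factors none was called, the median was 0.10, and their median deviation on vector replicate 3 was 0.07. AKT2, a kinase that phosphorylates some SR proteins, gave 0.75 (adjusted p = 0.193) and AKT1 gave 0.32 (adjusted p = 0.453).

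The 3 members called either with all arrays or with 1 array left out were compared across those fits. For HNRNPH2 the log2 fold change stayed between 0.90 and 0.96 whichever array was left out, but the call was lost without PRL-1 replicate 1 (adjusted p = 0.334), PRL-1 replicate 2 (0.228) or vector replicate 2 (0.0733). Leaving out a PRL-1 array leaves 1 array in that group, which is then assumed to vary like the vector arrays. For HNRNPA3 the value lay between 0.62 and 0.86, and for HNRNPA0 between 0.45 and 1.00.

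**Figure D5:**
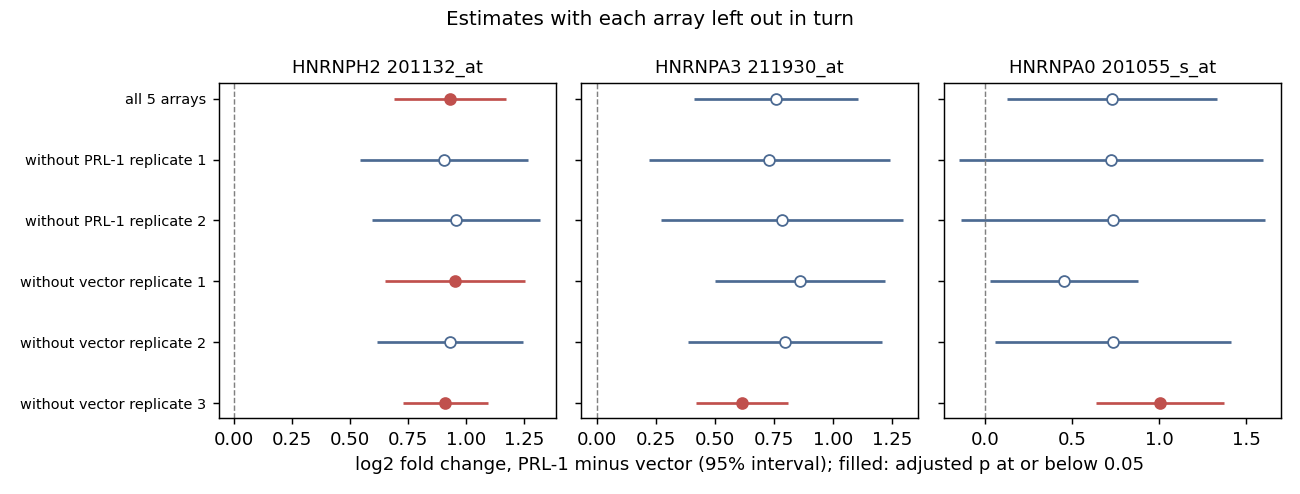
Log2 fold change with 95% interval for HNRNPH2, HNRNPA3 and HNRNPA0, with all 5 arrays and with each array left out in turn, each panel on its own x axis. Filled points have an adjusted p at or below 0.05, which HNRNPH2 reached in 3 of the 6 fits and the other two only without vector replicate 3.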

How the data were processed

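Total RNA of HEK293-vector and HEK293-PRL-1 cultures was hybridized to HG-U133 Plus 2.0 arrays. Each deposited value is a linear MAS5 intensity, for which the authors scaled every array to a common trimmed mean. Presence calls were not used here. The number of arrays limits the precision.

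Probe sets were named through the platform annotation and the RefSeq gene table. Of 54675 probe sets, 62 were controls, 41091 had 1 symbol, 1801 several and 11721 none in the annotation used. Signals of probe sets at 100 or more on at least 2 arrays were log2-transformed and tested two-sided with limma 3.58.1 (lmFit, eBayes with trend; R 4.3.3) on group alone. Benjamini-Hochberg adjustment covered all 33818 tested probe sets, and adjusted p at or below 0.05 was a call. The fit was tested on simulated data. For gene medians, each gene was read from its brightest tested probe set with 1 symbol (and HNRNPH2 from its own). Levels of different probe sets are not comparable.

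The genes named are HNRNPH2, members that were called, the 3 genes with the smallest unadjusted p in each role (all genes of roles with 4 or fewer), HNRNPH1, HNRNPF, HNRNPA3, SRSF2 and SRSF3, which the study names, and the 2 with the smallest p of each list of other splicing genes. Further members are named beside these to describe their role. The members and lists were chosen with earlier results of these data known. Shared replicate numbers were not taken to pair the samples, since the labels tie them to nothing. The deviations of same-numbered arrays from their group means correlated at 0.06 and -0.06. These values cannot decide on a pairing, because 2 PRL-1 arrays deviate from their mean by equal and opposite amounts. Alternatives covered the filter, an offset of 32 before the log, a replicate block, median centring, quantile normalization, array weights, no eBayes trend, the methods' t-test, each array left out and, for medians, the choice of probe sets.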

Additional observations from a re-analysis of the deposited data

How the results depend on the processing

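The call of HNRNPH2 held under the other filters, the offset, both other normalizations, array weights and the replicate block (log2 fold change 0.91, limma adjusted p = 0.0015). It was lost without the trend (0.93, adjusted p = 0.242) and in the methods' t-test over the probe sets tested here (0.93, adjusted p = 0.141). With arrays left out its log2 fold change ranged from 0.90 to 0.96. The number of member probe sets called was 2 with array weights, 3 with the replicate block, 0 without the trend and 0 in the t-test, beside 0.813%, 1.32%, 0.0266% and 0% of all tested probe sets, and 0 to 3 with arrays left out, beside 0.0325% to 0.926%. The number at an unadjusted p at or below 0.05 was 20 (13.2%) with array weights, 7 (4.61%) without the trend, 21 (13.8%) after quantile normalization and 27 (17.8%) with the replicate block, beside 14.3%, 8.4%, 10.1% and 14.9% of all tested probe sets. With arrays left out it ranged from 4 (2.63%) to 25 (16.4%), beside 5.13% and 14.2%, and in the t-test it was 16 (10.5%), beside 8.59%. The replicate block leaves vector replicate 3 without a partner, so its fold changes equal those without that array. HNRNPA3 was called with array weights (adjusted p = 0.0248) and with the block (0.0134), and HNRNPA0 with the block (0.00913). The call of FMR1 was lost without the trend (0.354), in the t-test (0.311), after median centring (0.0948) and with no filter (0.0627).

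The kinase gene median was 0.00356 after median centring, -0.0796 after quantile normalization, -0.21 without the probe sets whose names end in _x_at or _s_at, and -0.0757 to -0.0443 with arrays left out. Without those probe sets the hnRNP gene median was 0.14, and it was 0.07 after median centring, after quantile normalization and with the mean over all probe sets of a gene. The replicate block gave -0.00 for the hnRNP and 0.07 for the SR protein gene median. With arrays left out the hnRNP gene median ranged from -0.01 to 0.06 and the SR protein gene median from 0.07 to 0.16. With probe sets of several symbols included, an alternative chosen after seeing the data, the hnRNP, SR protein and kinase gene medians were -0.02, 0.11 and -0.04. The median over all genes measured was -0.03 in the main fit, 0.00645 after median centring and -0.0142 after quantile normalization. Median centring subtracts a single value per array from every probe set, so it moved each of these medians by the same amount. None of these medians was tested, and the causes of the other differences were not tested either. With 3 and 2 arrays, each from a single stable line, a p that misses the threshold does not show that a gene was equal in both lines.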
